A study of Mus musculus with 16 samples.

Results

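Hippocampi of 5xFAD-Dp16 mice were compared with hippocampi of Dp16 mice, to ask what amyloid-producing transgenes change in animals that already carry a Down syndrome-type duplication. The comparison used 8 of the 16 libraries of the study, chosen by the genotype in the labels. The first group was 4 libraries of 5xFAD-Dp16 mice, which carry transgenes with familial Alzheimer disease mutations, human APP among them, together with the duplication. The second was 4 libraries of Dp16 mice, in which a segment of mouse chromosome 16 that matches much of human chromosome 21 is duplicated. All mice were 5 months old. The duplication, with its extra copy of mouse App, was shared by both groups, and the transgenes were what differed. The 5xFAD transgenes are driven by the Thy1 promoter, so they are expressed in neurons and not in every cell that makes APP. All 4 5xFAD-Dp16 libraries were from males, while Dp16 had 2 males (replicates 2 and 3) and 2 females (replicates 1 and 4). The remaining 8 libraries, 4 of 5xFAD mice and 4 of wild-type C57BL/6J mice, each with 2 males and 2 females, gave the same contrast without the duplication. The labels name no litter and do not state that each library is a separate mouse, so p-values measure the spread between libraries.

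Microglia, the resident macrophages of the brain, sense amyloid through surface receptors, above all Trem2, which signals through the adaptor Tyrobp. Around plaques they are known to lower part of their resting programme and to switch on genes of phagocytosis, lysosomal breakdown, lipid handling and chemokine release. Astrocytes near plaques raise the filament protein Gfap, and in mice with more amyloid an interferon response and synaptic loss have been described.

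Poly(A) RNA was counted per gene, with totals of 17812977 to 25037769 counts per 5xFAD-Dp16 library and 17368777 to 24089861 counts per Dp16 library. Levels are CPM, counts per gene scaled to a common library size with edgeR's TMM method, and a gene was said to rise or fall at an adjusted p below 0.05 (edgeR quasi-likelihood test with a term for sex, Benjamini-Hochberg over 16684 genes). The sex of the label fitted the sex-linked genes in 16 of 16 libraries. Genes of tissue next to the hippocampus varied between libraries. The choroid plexus list had a mean log2 level, relative to the mean of the 16 libraries, of 1.92, -1.82, 0.61 and 1.74 in 5xFAD-Dp16 replicates 1 to 4 and of 1.09, -2.68, -2.57 and 1.45 in Dp16 replicates 1 to 4. The high Dp16 libraries were thus the female ones. The midbrain and hypothalamus list was high in 5xFAD-Dp16 replicate 3 alone among the 8, at 1.96, against -1.04 to 0.01 in the other 7.

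In 5xFAD-Dp16 hippocampus 141 genes passed, 0.845% of the genes tested. Of these, 138 rose (0.827%) and 3 fell (0.018%). Cst7, Itgax, Clec7a, Ccl3 and Gpr84, genes of microglia and other myeloid cells, were among the largest rises, and lysosomal enzymes, complement C1q, Fc receptors and Gfap also rose. Thy1, which is linked to the transgenes, rose too. Of the 141 genes, 67 were on at least 1 of the gene lists described here, and the other calls were on none. The split of higher and lower calls was 250 and 19 with DESeq2, and 69 and 12 when the 8 libraries were fitted alone. Most rises were large, with 98 above 1 and 29 above 2 on the log2 scale. In 137 of the 141 genes the CPM of the 5xFAD-Dp16 libraries did not overlap those of the Dp16 libraries. Over all genes tested, non-overlap occurred in 3.71% with 5xFAD-Dp16 higher and in 2.05% with 5xFAD-Dp16 lower. Their median log2 fold change was 0.02, and 53.4% had a positive value. At an unadjusted p below 0.05 there were 1074 higher genes (6.44%) and 355 lower ones (2.13%). These shares over all genes are the base for the list counts given below. As 5xFAD-Dp16 had no females, the sex term was estimated from the other genotypes. Without Dp16 replicate 2 there were 76 calls, and without Dp16 replicate 3 there were 80. Among males alone, 4 5xFAD-Dp16 against 2 Dp16, 49 genes passed, 47 of them among the 141. In that fit the choroid plexus list had a median log2 fold change of 3.94, against 1.28 in the main fit. The 2 male Dp16 libraries were those low in choroid plexus genes, so the fit did not even out tissue content. Since whole tissue was measured, more cells of a type and more RNA per cell cannot be told apart.

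**Figure D1:**
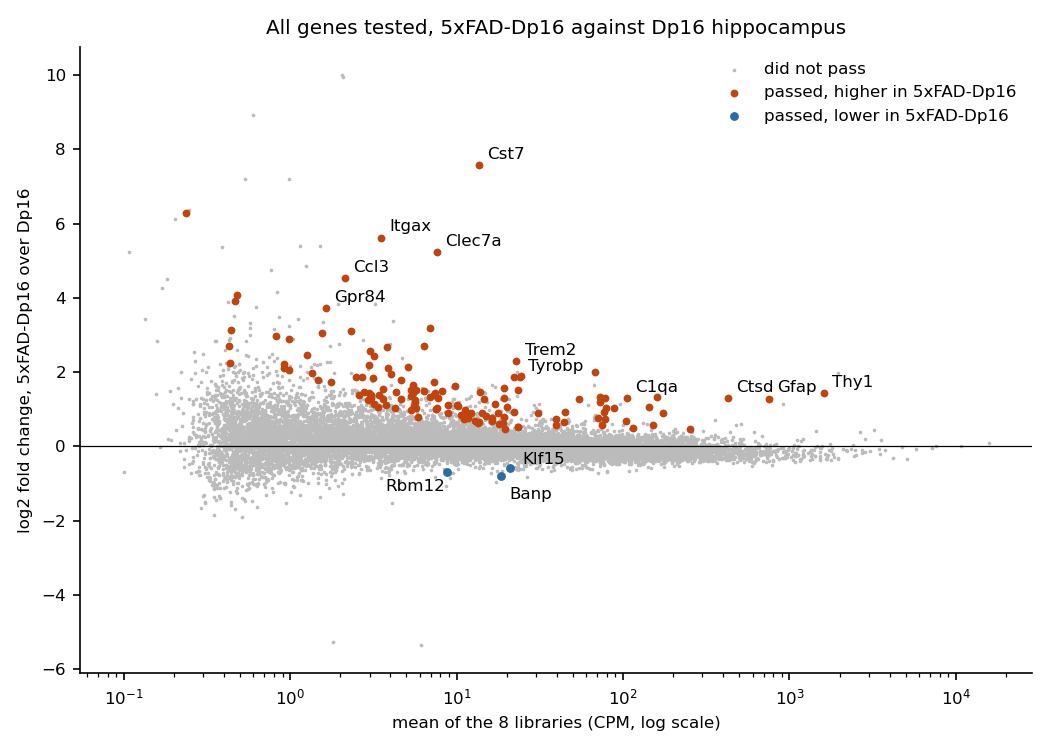
Each point is a gene tested, with its mean CPM over the 8 libraries on a log axis and the log2 fold change of 5xFAD-Dp16 over Dp16. The 138 genes that rose spread up to 7.58 (Cst7), while the 3 that fell (Klf15, Rbm12, Banp) lie close to 0. Grey points are genes that did not pass, and Ccl4, with 0 reads in Dp16, stands at its fitted value, which is no bound.

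Thy1, a neuronal surface protein whose regulatory sequence drives the transgenes, checked the genotype labels (GRCm38 chromosome 9, 44043384 to 44048579). It was at 2456, 3083, 1862 and 2072 CPM in the 5xFAD-Dp16 libraries and at 809, 896, 929 and 796 CPM in the Dp16 libraries. All 4 5xFAD-Dp16 libraries lay above all Dp16 libraries, with a log2 fold change of 1.43 ± 0.17 (SE, edgeR adjusted p = 0.000205). Mouse App, the amyloid precursor gene in the duplicated segment, did not pass, at 2961 ± 269 CPM in 5xFAD-Dp16 and 3139 ± 95.8 CPM in Dp16 (SD, n = 4 each, edgeR adjusted p = 0.754). The deposited counts are for mouse genes, and human transgene reads were not analysed here. The list of amyloid processing genes holds the secretases and their cofactors, and also Thy1, which is there for its link to the transgenes. Thy1 was the 1 of 20 tested members that passed, so no processing gene did, and the median log2 fold change was -0.06. Whether the added Thy1 reads came from the mouse gene or from the transgenes was not tested.

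Genes that mark microglia at plaques rose together. Of 29 tested members of that list, 15 rose, none fell, all 29 had a positive log2 fold change and the median was 1.48. Of all genes tested, 0.827% rose and 53.4% had a positive log2 fold change. Cst7, which encodes cystatin F, an inhibitor of cathepsins, changed most (chromosome 2, 150570415 to 150578944). It was at 31.8, 29.6, 26.6 and 20.0 CPM in the 5xFAD-Dp16 libraries and at 0.393, 0.0471, 0.248 and 0.0407 CPM in the Dp16 libraries. It was thus near the detection limit in Dp16 and well expressed in every 5xFAD-Dp16 library, with a log2 fold change of 7.58 ± 0.48 (SE, edgeR adjusted p = 1.09e-06). Itgax, the integrin alpha chain CD11c, had 7.92, 9.22, 5.98 and 4.05 CPM in 5xFAD-Dp16 and 0.393, 0.141, 0.186 and 0.122 CPM in Dp16. Clec7a, the receptor dectin-1, had 14.7, 13.8, 18.8 and 12.4 CPM in 5xFAD-Dp16 and 0.506, 0.188, 0.372 and 0.57 CPM in Dp16. Neither gene overlapped between the groups, with log2 fold changes of 5.62 ± 0.48 for Itgax and 5.24 ± 0.40 for Clec7a (SE, edgeR adjusted p = 7.31e-06 and 3.72e-06).

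Trem2 itself rose (chromosome 17, 48346401 to 48354147), at 39.7, 41.8, 39.1 and 30 CPM in 5xFAD-Dp16 and at 6.8, 7.96, 8.87 and 8.95 CPM in Dp16. Tyrobp, its adaptor, was at 36.2, 34.1, 44.2 and 34.2 CPM in 5xFAD-Dp16 and at 10.5, 11.3, 9.8 and 12.1 CPM in Dp16. Both were already expressed in Dp16 hippocampus, and their changes were smaller than that of Cst7, at 2.29 ± 0.17 for Trem2 and 1.87 ± 0.14 for Tyrobp (log2, SE, edgeR adjusted p = 3.72e-06 for each). Per gene length, as RPKM, Trem2 averaged 32.9 in 5xFAD-Dp16 and 6.93 in Dp16, close to Cst7 at 27.3 in 5xFAD-Dp16 and far above Cst7 at 0.176 in Dp16. Of the 14 tested genes of Trem2 signalling, 3 rose, which were Trem2, Tyrobp and Vav1, a guanine nucleotide exchange factor (log2 fold change 1.49 ± 0.25). Syk, the kinase that binds phosphorylated Tyrobp, had a log2 fold change of 0.19 and did not pass (edgeR adjusted p = 0.776). Plcg2, a phospholipase downstream of it, lay just outside in edgeR, at 0.77 with an adjusted p of 0.0548, and passed in DESeq2 (adjusted p = 0.00709). The list had 5 calls with DESeq2 and 5 without 5xFAD-Dp16 replicate 3.

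The promoters of genes that rose were searched for letters bound by factors of myeloid and lysosomal genes. RefSeq promoter windows of 300 bases (build GRCm38.p6, from 250 before to 50 after a gene's start) were found for 105 of the 138 genes that rose, in 124 windows, since some genes have several starts. The ETS motif AGGAAGT, of the kind bound by the myeloid factor PU.1, was read on both strands and was in 30 of the 124 windows (24.2%), and in 9.35% of all 32851 promoter windows. The AP-1 motif TGACTCA was in 5.65% of the windows of genes that rose and in 5.2% of all windows. Both shares are a description with no test, and a match is not a binding site. The ETS motif was in 3 of 13 windows (23.1%) that 11 plaque-associated microglia genes that rose had, again with no test. Itgax, a larger rise than Gpr84, was found with the AP-1 motif and not with the ETS motif. The windows shown here were picked among those that hold the ETS motif, in capitals on either strand. They are Cst7 and Gpr84 from the large rises, C1qb for complement and Samsn1 as the gene of the duplicated segment that rose.
Cst7, chr2:150570165-150570464, strand +: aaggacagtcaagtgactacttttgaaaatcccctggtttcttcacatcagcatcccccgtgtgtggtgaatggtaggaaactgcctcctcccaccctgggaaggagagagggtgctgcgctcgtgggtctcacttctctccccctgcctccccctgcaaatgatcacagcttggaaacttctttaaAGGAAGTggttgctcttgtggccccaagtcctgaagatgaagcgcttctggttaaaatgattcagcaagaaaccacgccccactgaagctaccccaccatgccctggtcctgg
Gpr84, chr15:103310389-103310688, strand -: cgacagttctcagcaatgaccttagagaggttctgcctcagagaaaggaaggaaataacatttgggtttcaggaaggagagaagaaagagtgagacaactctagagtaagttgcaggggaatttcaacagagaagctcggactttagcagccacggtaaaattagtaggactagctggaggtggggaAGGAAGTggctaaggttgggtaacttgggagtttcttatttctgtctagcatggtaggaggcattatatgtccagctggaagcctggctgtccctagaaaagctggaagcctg
C1qb, chr4:136886151-136886450, strand -: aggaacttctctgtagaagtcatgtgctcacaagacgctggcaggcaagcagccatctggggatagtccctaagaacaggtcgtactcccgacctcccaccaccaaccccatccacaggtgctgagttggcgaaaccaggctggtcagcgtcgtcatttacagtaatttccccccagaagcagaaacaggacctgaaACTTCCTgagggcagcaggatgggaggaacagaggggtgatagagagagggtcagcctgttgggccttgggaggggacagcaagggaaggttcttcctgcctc
Samsn1, chr16:75909217-75909516, strand -: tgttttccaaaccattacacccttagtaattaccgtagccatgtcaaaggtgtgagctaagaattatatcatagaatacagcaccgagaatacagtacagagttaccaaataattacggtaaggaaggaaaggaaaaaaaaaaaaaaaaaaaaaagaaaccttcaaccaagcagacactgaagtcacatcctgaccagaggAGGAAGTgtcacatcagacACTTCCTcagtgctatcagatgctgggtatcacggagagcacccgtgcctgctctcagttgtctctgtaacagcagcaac
In Cst7 and Gpr84 the motif stood at the same place in the window, bases 188 to 194, ahead of the start. C1qb held it at bases 198 to 204 as the reverse complement. Samsn1 held it at bases 202 to 208 and, as the reverse complement, at bases 221 to 227. Spi1, which encodes PU.1, rose to 7.67 ± 0.766 CPM in 5xFAD-Dp16, against 3.51 ± 0.359 CPM in Dp16 (SD, n = 4 each), a log2 fold change of 1.24 ± 0.18 (SE, edgeR adjusted p = 0.00133).

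**Figure D2:**
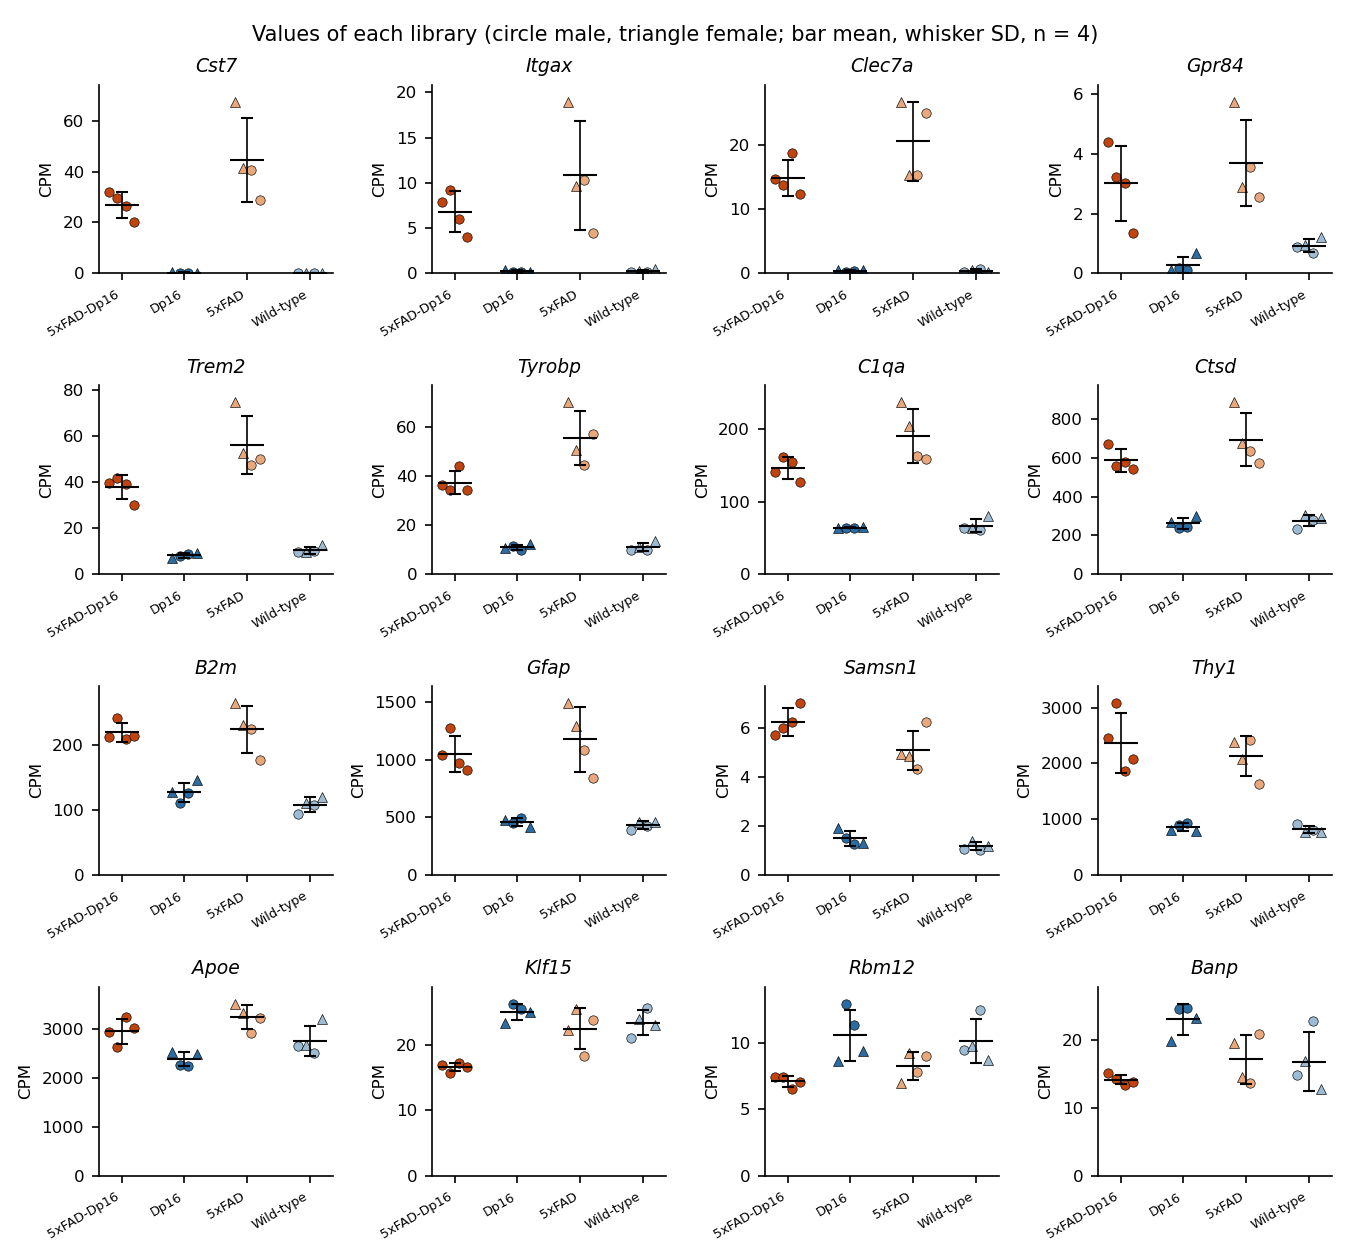
CPM of 16 genes in each library of the 4 genotypes, with circles for males, triangles for females, a bar for the mean and whiskers for the SD (n = 4). Genes from Cst7 to Thy1 show all 5xFAD-Dp16 libraries above all Dp16 libraries, and Klf15, Rbm12 and Banp show them below.

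Secreted and surface immune genes rose as well. Of 27 tested chemokines, cytokines and their receptors, 7 rose and the median log2 fold change was 0.76. The chemokine Ccl3 was at 5.55, 4.82, 3.04 and 2.79 CPM in 5xFAD-Dp16 and at 0.225, 0.0942, 0.186 and 0.366 CPM in Dp16. Its groups were far apart, with a log2 fold change of 4.53 ± 0.62 (SE, edgeR adjusted p = 0.000858). Ccl6, a further chemokine of myeloid cells, had 12.8, 12.8, 13.1 and 10.6 CPM in 5xFAD-Dp16 and 1.63, 0.942, 1.67 and 1.67 CPM in Dp16, a log2 fold change of 3.19 ± 0.26 (SE, edgeR adjusted p = 4.57e-06). Ccl4, related to Ccl3, passed with 38 reads over the 5xFAD-Dp16 libraries and 0 reads in all 4 Dp16 libraries, so it was at least 12.6-fold higher, counting 3 reads over the Dp16 group as the floor. With Ccl4 at that bound, a log2 value of 3.66, it still lay above the list's median, which was therefore the same. The receptor subunits Csf2ra and Csf3r, for the growth factors GM-CSF and G-CSF, and the death receptor Tnfrsf1a also rose, by 0.77, 1.49 and 0.69 on the log2 scale. The Ccl3 and Ccl6 calls held in all 16 fits that left out 1 library. Csf2ra did not pass without Dp16 replicate 3 (edgeR adjusted p = 0.0731), while Ccl4 passed in 3, Csf3r in 11 and Tnfrsf1a in 6 of the 16 fits, with a highest adjusted p of 0.172 and 0.113 without Dp16 replicate 2 and of 0.257 without Dp16 replicate 3. The 7 calls of the list were 3 without Dp16 replicate 2 or 3, and 4 without Dp16 replicate 4 or 5xFAD-Dp16 replicate 2 or 3.

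Immune receptors gave 13 rises among 30 tested members, with a median log2 fold change of 1.35. The activating Fc receptor Fcgr3 was at 26.6, 27.3, 26.0 and 27.3 CPM in 5xFAD-Dp16 and at 12.9, 9.37, 12 and 13 CPM in Dp16. Ly86, the partner protein of the receptor Cd180, had 27.0, 31.8, 28.1 and 27.6 CPM in 5xFAD-Dp16 and 10.5, 9.28, 10.8 and 9.44 CPM in Dp16. The groups were apart in both genes, with log2 fold changes of 1.31 ± 0.11 and 1.58 ± 0.13 (SE, edgeR adjusted p = 4.59e-06 for each). Cd180, a Toll-like receptor homologue, rose with Ly86, with a log2 fold change of 2.71 ± 0.31. Tlr2, a receptor for bacterial lipoproteins, rose to 5.18 ± 0.207 CPM in 5xFAD-Dp16, against 1.2 ± 0.25 CPM in Dp16 (SD, n = 4 each, log2 fold change 2.44 ± 0.27). The log2 fold change was 1.51 for Fcgr2b, the inhibitory Fc receptor, and 3.91 for Pdcd1, the checkpoint receptor PD-1, at 0.872 ± 0.357 CPM in 5xFAD-Dp16 and 0.0664 ± 0.096 CPM in Dp16. Its ligand gene Cd274 rose by 1.05 on the log2 scale. Fcgr2b did not pass without Dp16 replicate 3 (edgeR adjusted p = 0.0764), and without Dp16 replicate 2 the adjusted p was 0.153 for Pdcd1 and 0.102 for Cd274. The list had 8 calls in place of 13 without Dp16 replicate 3. The Fc receptor genes are similar in sequence, and the split of reads among them is uncertain.

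Gpr84, a receptor for medium-chain fatty acids on myeloid cells, was at 4.41, 3.24, 3.04 and 1.37 CPM in 5xFAD-Dp16 and at 0.112, 0.188, 0.124 and 0.692 CPM in Dp16. Replicate 4 was the lowest of the 5xFAD-Dp16 libraries and the highest of the Dp16 libraries, and the groups did not overlap (log2 fold change 3.73 ± 0.52, SE, edgeR adjusted p = 0.000989). Among the other large rises, St14 encodes the membrane protease matriptase and had a log2 fold change of 3.12 ± 0.40. Slc11a1, a metal transporter of the phagosome, had 2.67 ± 0.22, and Mpeg1, the pore-forming protein perforin-2, had 2.02 ± 0.17 (log2, SE, edgeR adjusted p = 4.57e-06 and 4.59e-06). Naip5, an inflammasome sensor of bacterial flagellin, was at 1.36, 1.24, 2.28 and 1.74 CPM in 5xFAD-Dp16 and at 0.506, 0.141, 0.186 and 0.448 CPM in Dp16, but the Naip genes are close copies and its reads are uncertain. Ly9, a receptor of the SLAM family, had a log2 fold change of 3.05 ± 0.56 and did not pass without Dp16 replicate 2 or 3 (edgeR adjusted p = 0.084 and 0.0832). Treml2, a relative of Trem2, at 1.45 ± 0.255 CPM in 5xFAD-Dp16 and 0.205 ± 0.162 CPM in Dp16 (SD, n = 4 each), passed in 9 of the 16 fits that left out 1 library, with a highest adjusted p of 0.0863 without Dp16 replicate 4.

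Complement genes gave 5 rises among 17 tested members, with a median log2 fold change of 0.95. The 3 chains of C1q, the recognition protein of the classical pathway, lie side by side on chromosome 4. C1qa was at 141, 162, 155 and 128 CPM in 5xFAD-Dp16 and at 64.0, 63.5, 63.4 and 65.2 CPM in Dp16. C1qb was at 110, 114, 107 and 103 CPM in 5xFAD-Dp16 and at 49.2, 48.0, 44.4 and 47.1 CPM in Dp16. C1qa, C1qb and C1qc rose by like amounts, 1.31 ± 0.12, 1.32 ± 0.10 and 1.19 ± 0.13 on the log2 scale (SE, edgeR adjusted p = 1.26e-05, 4.57e-06 and 7.07e-05). Itgb2, the shared beta chain of the complement receptors CR3 and CR4, and C3ar1, the receptor for C3a, also rose, by 1.47 and 1.78 on the log2 scale, C3ar1 not passing without Dp16 replicate 2 (edgeR adjusted p = 0.0502). C3, the component on which the pathways meet, did not pass, with a log2 fold change of 0.95 ± 0.30 and overlapping groups (edgeR adjusted p = 0.244). C4b was at 143, 190, 86.3 and 102 CPM in 5xFAD-Dp16 and at 67.2, 58.4, 72.3 and 49.2 CPM in Dp16, did not overlap and did not pass (edgeR adjusted p = 0.0749). C4b has a near copy, which makes its count uncertain.

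Many lysosomal genes rose. Of 32 tested members, 14 rose, none fell and 31 had a positive log2 fold change, with a median of 0.55. Ctsd, the aspartic protease cathepsin D, was at 671, 556, 580 and 543 CPM in 5xFAD-Dp16 and at 271, 238, 242 and 300 CPM in Dp16 (chromosome 7, 142375911 to 142388038). Ctss, the cysteine protease cathepsin S of myeloid cells, was at 223, 242, 223 and 212 CPM in 5xFAD-Dp16 and at 96.2, 82.5, 103 and 101 CPM in Dp16. The groups were apart in both, with log2 fold changes of 1.31 ± 0.12 and 1.32 ± 0.12 (SE, edgeR adjusted p = 1.07e-05 and 9.97e-06). Ctsz, Ctsh, Ctsl and Ctsa, further lysosomal peptidases, rose by 1.34, 1.16, 0.68 and 0.51 on the log2 scale. Hexa had a log2 fold change of 0.59 ± 0.10, Gusb, β-glucuronidase, had 1.07 ± 0.16, and Naglu, a heparan sulfate enzyme, had 0.83 ± 0.13. Npc2, which carries cholesterol out of the lysosome, rose by 0.75 and did not pass without Dp16 replicate 3 (edgeR adjusted p = 0.0507). Cd68, the macrophage lysosomal membrane protein, was at 43.9, 39.0, 37.0 and 32.9 CPM in 5xFAD-Dp16 and at 9.55, 11.7, 10.2 and 11.4 CPM in Dp16, a log2 fold change of 1.91 ± 0.23 (SE, edgeR adjusted p = 0.000205). Ctsb, cathepsin B, had a log2 fold change of 0.39 and did not pass (edgeR adjusted p = 0.0749). Among males alone 7 of the 32 members rose, with a median of 0.50.

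The E-box TCACGTG, of the kind bound by TFEB, a regulator of lysosomal genes, was in 3 of 12 promoter windows that 11 of these 14 genes had (25%), in 4.84% of the windows of all genes that rose and in 3.77% of all windows, again with no test. The windows were those of Ctsa, Ctsd and Naglu. Ctsd and a window of Ctsa are shown with the motif in capitals on either strand, where TCACGTGA holds it on both strands at once.
Ctsd, chr7:142387778-142388077, strand -: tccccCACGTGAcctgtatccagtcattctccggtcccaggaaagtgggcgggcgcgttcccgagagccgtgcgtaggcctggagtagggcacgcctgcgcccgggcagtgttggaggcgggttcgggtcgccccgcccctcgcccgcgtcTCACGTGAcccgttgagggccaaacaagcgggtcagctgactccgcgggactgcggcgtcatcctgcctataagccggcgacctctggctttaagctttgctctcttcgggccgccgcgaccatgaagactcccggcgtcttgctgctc
Ctsa, chr2:164833523-164833822, strand +: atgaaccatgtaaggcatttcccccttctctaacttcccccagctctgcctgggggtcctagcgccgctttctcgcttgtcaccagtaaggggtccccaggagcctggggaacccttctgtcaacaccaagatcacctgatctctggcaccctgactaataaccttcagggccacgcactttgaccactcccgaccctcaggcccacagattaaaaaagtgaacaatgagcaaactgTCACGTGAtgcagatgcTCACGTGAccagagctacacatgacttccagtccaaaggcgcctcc
Ctsd held the motif near the far end of the window, at bases 6 to 12, and at bases 152 to 159. Ctsa held it at bases 238 to 245 and 255 to 262, and its other window, from another start, did not hold these letters.

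**Figure D3:**
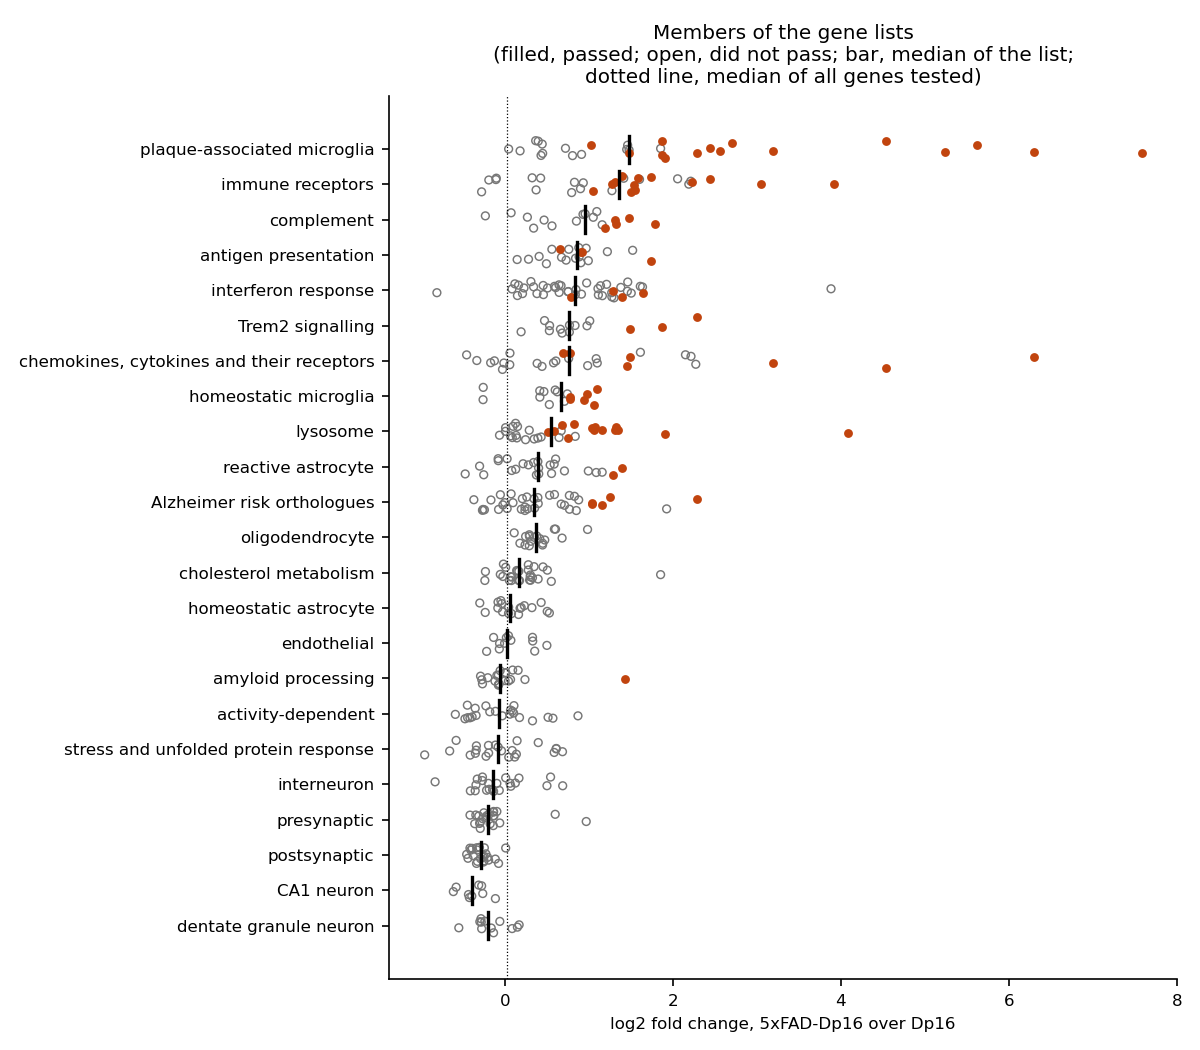
Each point is a tested member of a gene list at its log2 fold change of 5xFAD-Dp16 over Dp16, filled where it passed, with a bar at the median of the list and a dotted line at the median of all genes, 0.02. Lists of microglia and immune genes lie to the right, from 1.48 for plaque-associated microglia, and CA1 neuron genes lie to the left, at -0.40, with no member that passed. Ccl4, with 0 reads in Dp16, is drawn at its fitted value.

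No gene of resting microglia fell in 5xFAD-Dp16. Of 16 tested homeostatic members, 6 rose, none fell and the median log2 fold change was 0.66. Cx3cr1, the fractalkine receptor, was at 91.3, 97.9, 79.8 and 84.2 CPM in 5xFAD-Dp16 and at 52.4, 51.9, 55.1 and 50.8 CPM in Dp16. The groups did not overlap (log2 fold change 0.77 ± 0.15, SE, edgeR adjusted p = 0.0206). Gpr34, a lysophosphatidylserine receptor, Siglech, a lectin, Olfml3, a secreted matrix protein, and P2ry13, a nucleotide receptor, rose by 1.09, 0.78, 0.94 and 0.97. P2ry12, the ADP receptor of resting microglia, was at 50.9, 53.2, 54.3 and 42.2 CPM in 5xFAD-Dp16 and at 33.0, 32.7, 35.5 and 35.0 CPM in Dp16, apart but not past the threshold (edgeR adjusted p = 0.0632). Tmem119, a microglial membrane protein, was at 27.2 ± 1.55 CPM in 5xFAD-Dp16 and 22.0 ± 1.68 CPM in Dp16 and did not pass (SD, n = 4 each, edgeR adjusted p = 0.307). Of the homeostatic members, 1 passed without Dp16 replicate 2, 3 without 5xFAD-Dp16 replicate 1 and 1 among males alone. Without Dp16 replicate 2, Cx3cr1 had an edgeR adjusted p of 0.117, Gpr34 of 0.0667, Siglech of 0.0577, Olfml3 of 0.0811 and P2ry13 of 0.0961.

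Antigen presentation genes gave 4 rises among 20 tested members, all 20 with a positive log2 fold change and a median of 0.86. B2m, the light chain of MHC class I, was at 212, 241, 209 and 213 CPM in 5xFAD-Dp16 and at 127, 110, 125 and 145 CPM in Dp16. H2-D1, a class I heavy chain, was at 97.7, 120, 80.5 and 87.5 CPM in 5xFAD-Dp16 and at 59.3, 46.5, 53.4 and 69.0 CPM in Dp16. Neither overlapped, with log2 fold changes of 0.91 ± 0.11 and 0.92 ± 0.13 (SE, edgeR adjusted p = 0.000214 and 0.00164). H2-K1 and H2-Q6 rose as well, but H2-K1 passed in 12 and H2-Q6 in 5 of 16 fits that left out 1 library, with a highest adjusted p of 0.121 and 0.251, both without Dp16 replicate 2. The list had 2 calls in place of 4 without Dp16 replicate 2 or 3 or 5xFAD-Dp16 replicate 1. The H2 genes share sequence and their counts are uncertain. On the class II side, Cd74, the invariant chain, was at 11.9, 14.8, 10.8 and 18.7 CPM in 5xFAD-Dp16 and at 21.3, 5.84, 6.57 and 14.8 CPM in Dp16, overlapped and did not pass (edgeR adjusted p = 0.593).

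Interferon response genes leaned upwards with few calls. Of 43 tested members, 42 had a positive log2 fold change, the median was 0.84 and 4 rose, with 31 higher at an unadjusted p below 0.05. Of all genes tested, 53.4% were positive, 0.827% rose and 6.44% were higher at that unadjusted p. Irf8, a transcription factor of myeloid cells, rose to 14.7 ± 1.32 CPM in 5xFAD-Dp16, against 5.01 ± 0.972 CPM in Dp16 (SD, n = 4 each), a log2 fold change of 1.64 ± 0.21 (SE, edgeR adjusted p = 0.000347). Bst2, the antiviral protein tetherin, was at 11.5, 7.85, 9.73 and 12.3 CPM in 5xFAD-Dp16 and at 4.61, 3.11, 3.04 and 6.67 CPM in Dp16. Replicate 4 had the highest value in both groups. The list as a whole had a mean log2 level of 0.20, 0.40, 0.19 and 0.86 in 5xFAD-Dp16 replicates 1 to 4 and of -0.36, -0.47, -0.42 and 0.00 in Dp16 replicates 1 to 4. Replicate 4 was again the highest in each group, and the groups did not overlap. The other rises were Lgals3bp, a secreted galectin ligand, and Parp14, an ADP-ribosyltransferase, by 1.29 and 0.79. Bst2 passed in 11, Lgals3bp in 12 and Parp14 in 3 of 16 fits that left out 1 library, with a highest adjusted p of 0.186, 0.118 and 0.263, each without Dp16 replicate 2. The count of 4 was 13 with DESeq2, it was 1 without Dp16 replicate 2 or 3 and without 5xFAD-Dp16 replicate 1 or 4, and it was 7 without 5xFAD-Dp16 replicate 3.

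Among astrocyte genes the filament gene Gfap rose. It was at 1037, 1274, 973 and 911 CPM in 5xFAD-Dp16 and at 479, 449, 496 and 416 CPM in Dp16 (chromosome 11, 102887336 to 102900912). The groups were far apart, with a log2 fold change of 1.29 ± 0.15 (SE, edgeR adjusted p = 0.000205). Of 25 tested genes of reactive astrocytes, 2 rose, Gfap and Cd14, the endotoxin co-receptor, which is also on the list of immune receptors. The median was 0.39. The list had 7 calls with DESeq2 and 5 without 5xFAD replicate 4. Serpina3n, a secreted serpin, was at 79.4, 106, 54.7 and 57.2 CPM in 5xFAD-Dp16 and at 61.9, 53.7, 65.1 and 37.2 CPM in Dp16, overlapped and did not pass (edgeR adjusted p = 0.712). None of 18 homeostatic astrocyte genes passed at an adjusted p below 0.05 in edgeR or DESeq2, with 2 higher and none lower at an unadjusted p below 0.05. Apoe, the main lipid carrier of the brain, was at 2942, 2628, 3246 and 3014 CPM in 5xFAD-Dp16 and at 2527, 2273, 2249 and 2489 CPM in Dp16. It did not overlap and did not pass in edgeR (log2 fold change 0.40 ± 0.10, adjusted p = 0.118), and it passed in DESeq2 (adjusted p = 0.0004). Of 28 cholesterol genes none passed in edgeR, 1 did in DESeq2 and 9 were higher at an unadjusted p below 0.05. The share higher at that unadjusted p over all genes tested was 6.44%.

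Mouse counterparts of human Alzheimer disease risk genes gave 5 rises among 37 tested members, with a median log2 fold change of 0.35. They were Trem2, Spi1, Ctsh, Abi3, an actin regulator, and Laptm5, a lysosomal membrane protein, at 2.29, 1.24, 1.16, 1.04 and 1.04. Abi3 passed in 9 of 16 fits that left out 1 library, with a highest adjusted p of 0.213 without Dp16 replicate 2, and Laptm5 in 5, with a highest adjusted p of 0.224 without the same library. The exons of Abi3 share positions with another gene. The list had 3 calls in place of 5 when 1 of these libraries was left out: 5xFAD-Dp16 replicate 1, 2 or 4, Dp16 replicate 1, 2 or 4, or 5xFAD replicate 3. Inpp5d, a lipid phosphatase that restrains Trem2 signals, had a log2 fold change of 0.77, and Cd33, an inhibitory lectin, had 0.83, and neither passed (edgeR adjusted p = 0.259 and 0.324).

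No member of the neuronal and synaptic lists passed. Of 22 presynaptic genes, 20 had a negative log2 fold change, with a median of -0.20 and no call. Of 23 postsynaptic genes, 22 were negative, with a median of -0.29 and no call. Over all genes tested, 53.4% had a positive log2 fold change. At an unadjusted p below 0.05, none of the presynaptic genes and 1 postsynaptic gene were lower, and DESeq2 called none of either list. Gria2, an AMPA receptor subunit with the smallest p of the postsynaptic list, had a log2 fold change of -0.33 and an edgeR adjusted p of 0.579. Genes of CA1 pyramidal neurons had a median of -0.40 and no call among 9, and those of dentate granule neurons had -0.20 and no call among 12. 5xFAD-Dp16 replicate 3 had a CA1 list level of -0.67, against -0.01 to 0.43 in the other 5xFAD-Dp16 libraries and 0.07 to 0.37 in Dp16. It was also the library high in midbrain genes and in oligodendrocyte genes, with an oligodendrocyte list level of 0.60, against -0.05 to 0.03 in the other 5xFAD-Dp16 libraries. The libraries high in midbrain genes among all 16 were 5xFAD-Dp16 replicate 3, 5xFAD replicate 2 and wild-type replicate 4. Without them the median was -0.09 for postsynaptic, -0.11 for presynaptic and -0.04 for CA1 neuron genes. With the midbrain and choroid plexus list levels as covariates in the fit, the medians were positive, at 0.07, 0.04 and 0.05. Leaving out 1 library at a time gave medians of -0.42 to -0.17, -0.28 to -0.13 and -0.47 to -0.21 for these lists. The part of each library was not tested.

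Activity-dependent genes, which report recent neuronal firing, had no call among 22 and a median of -0.07. Fos was at 19.6 ± 3.47 CPM in 5xFAD-Dp16 and 15.1 ± 3.06 CPM in Dp16, and Bdnf was at 43.1 ± 8.4 CPM in 5xFAD-Dp16 and 44.3 ± 4.85 CPM in Dp16 (SD, n = 4 each, edgeR adjusted p = 0.645 and 0.794). The interneuron peptides Sst and Npy were at 213 ± 21.4 and 40.9 ± 5.25 CPM in 5xFAD-Dp16, against 246 ± 19.0 and 49.3 ± 1.76 CPM in Dp16 (SD, n = 4 each, edgeR adjusted p = 0.693 and 0.697). The opioid precursor Penk was at 43.7 ± 6.73 CPM in 5xFAD-Dp16 and 37.1 ± 4.43 CPM in Dp16 (SD, n = 4 each, edgeR adjusted p = 0.775). None of the 22 interneuron genes passed, with 1 lower at an unadjusted p below 0.05 and 1 called by DESeq2. All 18 oligodendrocyte genes had a positive log2 fold change, with a median of 0.36 and no call in edgeR, 8 at an unadjusted p below 0.05 and 2 calls in DESeq2. Of all genes tested, 53.4% were positive and 6.44% were higher at that unadjusted p. Stress and unfolded protein genes had no call among 23 in edgeR, 5 at an unadjusted p below 0.05, of which 4 were lower, and 1 call in DESeq2. Ribosomal protein genes, 52 tested, and respiratory chain genes, 30 tested, had no call, with medians of 0.23 and 0.08. Among the 8 libraries both lists had their highest level in 5xFAD-Dp16 replicate 3, and without the libraries high in midbrain genes the medians were 0.10 and -0.03.

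The 3 genes that fell stood apart from any list. Klf15, a transcription factor induced by glucocorticoids, was at 16.9, 15.7, 17.2 and 16.7 CPM in 5xFAD-Dp16 and at 23.3, 26.2, 25.5 and 24.9 CPM in Dp16 (chromosome 6, 90462576 to 90475238). The values were tight in both groups and did not overlap, with a log2 fold change of -0.57 ± 0.11 (SE, edgeR adjusted p = 0.0206). Banp, a nuclear matrix-associated DNA-binding protein, was at 15.1, 14.3, 13.4 and 13.8 CPM in 5xFAD-Dp16 and at 19.8, 24.5, 24.7 and 23.2 CPM in Dp16. Rbm12, an RNA-binding protein, was at 7.41, 7.38, 6.53 and 7.05 CPM in 5xFAD-Dp16 and at 8.6, 12.9, 11.3 and 9.36 CPM in Dp16. Their groups did not overlap either, with log2 fold changes of -0.79 ± 0.18 and -0.68 ± 0.15 (SE, edgeR adjusted p = 0.0454 and 0.0403). Klf15 passed in 11, Banp in 5 and Rbm12 in 5 of 16 fits that left out 1 library, with a highest adjusted p of 0.153, 0.186 and 0.255, each without Dp16 replicate 2, and none of the 3 passed among males alone. Just outside the threshold lay Hif3a, a hypoxia-inducible factor subunit, and Dio2, the enzyme that makes active thyroid hormone, with log2 fold changes of -1.51 ± 0.34 and -0.65 ± 0.15 (SE, edgeR adjusted p = 0.0515 for each). Mfsd2a, the lipid transporter of the blood-brain barrier, had -0.65 ± 0.15 and the glucose transporter Slc2a1 had -0.56 ± 0.15, with edgeR adjusted p of 0.0632 and 0.111. In DESeq2 all 4 passed, with adjusted p of 0.00227 for Hif3a, 0.00428 for Dio2, 0.00479 for Mfsd2a and 0.0132 for Slc2a1. Promoter windows were found for Klf15 and Rbm12, and that of Klf15 is shown since it holds the E-box TCACGTG, in capitals at bases 78 to 84 and 247 to 254.
Klf15, chr6:90462326-90462625, strand +: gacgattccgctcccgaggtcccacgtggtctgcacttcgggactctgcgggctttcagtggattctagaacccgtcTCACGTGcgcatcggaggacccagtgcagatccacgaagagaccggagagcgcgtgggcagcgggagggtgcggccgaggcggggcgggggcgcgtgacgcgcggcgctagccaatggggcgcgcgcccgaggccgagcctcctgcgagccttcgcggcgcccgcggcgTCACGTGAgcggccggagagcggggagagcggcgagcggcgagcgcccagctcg

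In the duplicated segment, taken as chromosome 16 from 75540514 to 97962622, 1 of 105 tested genes passed (0.952% rose, close to the 0.827% over all genes). This was Samsn1, an adaptor protein of immune cells, which was at 5.71, 5.97, 6.23 and 7 CPM in 5xFAD-Dp16 and at 1.91, 1.51, 1.24 and 1.30 CPM in Dp16 (75858793 to 76022281). The groups were apart, with a log2 fold change of 2.12 ± 0.21 (SE, edgeR adjusted p = 2.92e-05). Without the duplication the fold change of 5xFAD over wild-type was the same to 2 decimals, 2.12. The segment's median log2 fold change was 0.06, beside 0.02 over all genes, and its values ran from -0.49 to 3.88, the largest not passing. At an unadjusted p below 0.05, 10 segment genes were higher and 1 was lower. Over all genes these shares were 6.44% and 2.13%. Runx1, a transcription factor of blood and myeloid cells, was at 3.79, 4.44, 2.33 and 3.68 CPM in 5xFAD-Dp16 and at 1.46, 1.41, 2.17 and 1.18 CPM in Dp16, apart but not past the threshold (edgeR adjusted p = 0.11). The interferon receptor genes of the segment did not pass. Ifnar1 was at 54.3 ± 2.33 CPM in 5xFAD-Dp16 and 57.8 ± 3.68 CPM in Dp16, and Ifnar2 at 32.8 ± 2.68 CPM in 5xFAD-Dp16 and 27.5 ± 3.97 CPM in Dp16 (SD, n = 4 each, edgeR adjusted p = 0.766 and 0.339). Ifngr2 and Il10rb had log2 fold changes of 0.05 and 0.49, and Dyrk1a, a kinase studied in Down syndrome, had -0.17 (edgeR adjusted p = 0.882, 0.388 and 0.65).

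Marker lists of other cells were measured beside these changes. Markers of border macrophages gave no call among 8 tested, and their summed level was 22.4 to 31.4 CPM in 5xFAD-Dp16 and 23.5 to 33.4 CPM in Dp16. Of the monocyte and neutrophil list 4 of 13 members were tested, with no call and a summed level of 13.8 to 25.4 CPM in 5xFAD-Dp16 and 15.5 to 22.8 CPM in Dp16. Of the T, NK and B cell list 6 of 18 were tested, and Ighm, the heavy chain of immunoglobulin M, rose to 18.2 ± 1.19 CPM in 5xFAD-Dp16, against 10.3 ± 0.685 CPM in Dp16 (SD, n = 4 each, log2 fold change 0.90 ± 0.16, edgeR adjusted p = 0.00827). Ighm did not pass without Dp16 replicate 2 or 3 (edgeR adjusted p = 0.053 and 0.0527), and Cd79a, a B-cell receptor chain, had a log2 fold change of -0.89 and did not pass. All 16 choroid plexus genes were positive with a median of 1.28 and no call, and all 12 tested midbrain and hypothalamus genes were positive with a median of 2.65 and no call. Of these 12, 5 were higher at an unadjusted p below 0.05. Without the libraries high in midbrain genes the median of the midbrain and hypothalamus list was 0.15. Endothelial genes had no call among 12 and a median of 0.03. The summed choroid plexus level was 469 to 6385 CPM in 5xFAD-Dp16 and 273 to 5069 CPM in Dp16, so the groups overlapped. Without the libraries high in choroid plexus genes, which left replicates 2 and 3 of each group, 4 genes passed, Cst7, Clec7a, Itgax and Trem2, while the medians were 1.73 for plaque-associated microglia, 0.47 for lysosome and 0.76 for interferon genes. The choroid plexus median was 2.62 in that fit, against 1.28 in the main fit. It therefore did not even out choroid plexus content between the groups.

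**Figure D4:**
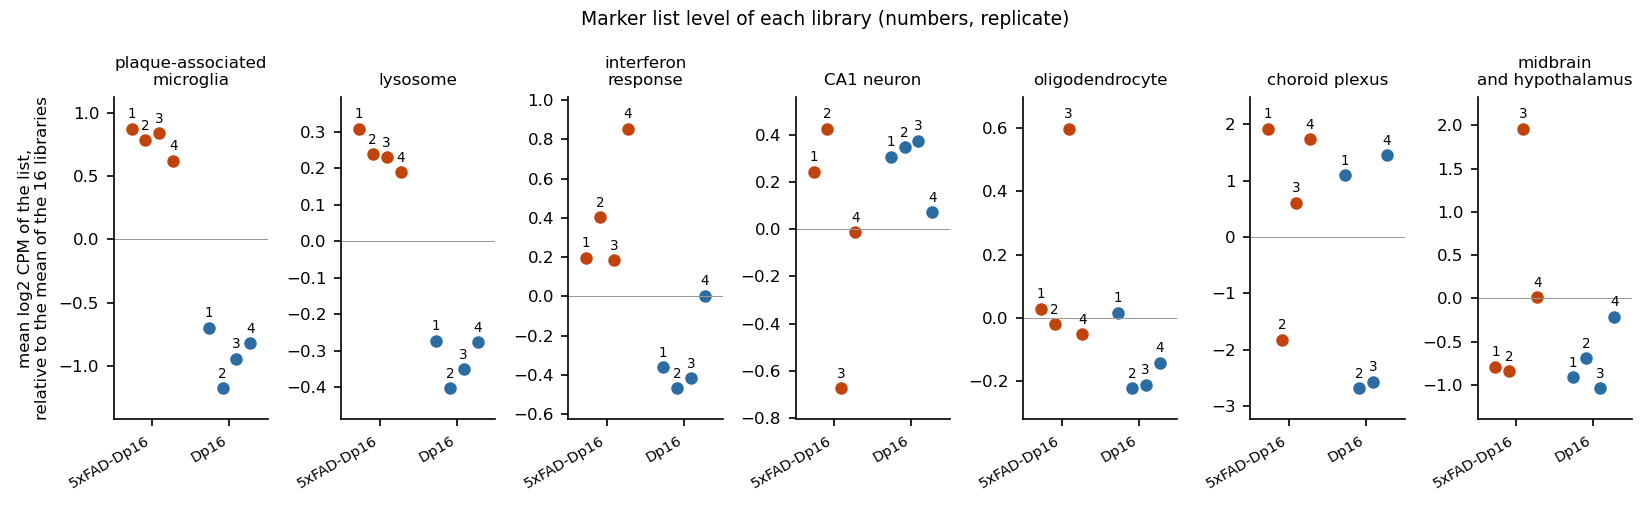
Mean log2 CPM of each list in the 8 libraries, relative to the mean of all 16, numbered by replicate. Plaque-associated microglia and lysosome levels separate the groups, at 0.62 to 0.87 and 0.19 to 0.31 in 5xFAD-Dp16 and at -1.18 to -0.70 and -0.40 to -0.27 in Dp16, while choroid plexus levels run across both groups and 5xFAD-Dp16 replicate 3 is high in midbrain and oligodendrocyte genes.

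The effect of the transgenes on the duplication background was set beside that on a normal background, between groups that share no library. Both effects came from 1 fit of all 16 libraries, with a shared sex term and a shared estimate of the spread, so they are not fully independent. In 5xFAD against wild-type 162 genes passed (0.971%), 161 of them higher. Both comparisons called 100 genes, 70.9% of the 141 and 61.7% of the 162, all with the same sign. Of the 141 calls, 140 had the same sign in 5xFAD against wild-type. Their median log2 fold change was 1.30 in 5xFAD-Dp16 against Dp16 and 1.16 in 5xFAD against wild-type. As the 141 were picked by the first comparison, a larger value there is favoured by the choice. Of the 100 genes called in both, 45 had the larger effect with the duplication. The difference between the effects was tested as an interaction. No gene passed in edgeR or in DESeq2, with 332 at an unadjusted p below 0.05 in edgeR (1.99%) and 376 in DESeq2, and the smallest edgeR adjusted p was 1.00. Gene by gene, Trem2 changed by 2.29 with the duplication and by 2.43 without it, Ctsd by 1.31 and 1.32, and Gfap by 1.29 and 1.43 on the log2 scale.

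A call in 1 comparison alone is no test of a difference. Of the 41 genes called with the duplication and not without it, 15 had an unadjusted p of the difference below 0.05. Of the 62 called without it and not with it, 7 did, and over all genes tested the share was 1.99%. Both sets were picked by the same fit for unlike results, which favours a small p of the difference, so the counts are no evidence of one. Klf15 had log2 fold changes of -0.57 with the duplication and -0.06 without it, and Banp had -0.79 and 0.04 (unadjusted p of the difference = 0.00436 and 0.00347, adjusted 1.00 by edgeR). Naip5 had 2.89 and 1.12, and Gpr84, called in both, had 3.73 and 1.99 (unadjusted p of the difference = 0.00388 and 0.0176, adjusted 1.00 by edgeR). Nkx2-2, a transcription factor of the oligodendrocyte lineage, had 1.32 and 0.15 (unadjusted p = 0.00352, adjusted 1.00 by edgeR), and its highest value, 12.6 CPM, was in 5xFAD-Dp16 replicate 3, the library high in midbrain and oligodendrocyte genes. The part of that library in the difference was not tested, and Nkx2-2 did not pass in 5xFAD-Dp16 against Dp16 without it (edgeR adjusted p = 0.0534) or without Dp16 replicate 2 or 3 (0.0961 and 0.132). Tyrobp changed less with the duplication, 1.87, than without it, 2.33 (unadjusted p of the difference = 0.0298, adjusted 1.00 by edgeR). The smallest p of the interaction was that of Cfap100, a gene of cilia, with log2 fold changes of -0.52 with the duplication and 0.87 without it and no call in either comparison.

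**Figure D5:**
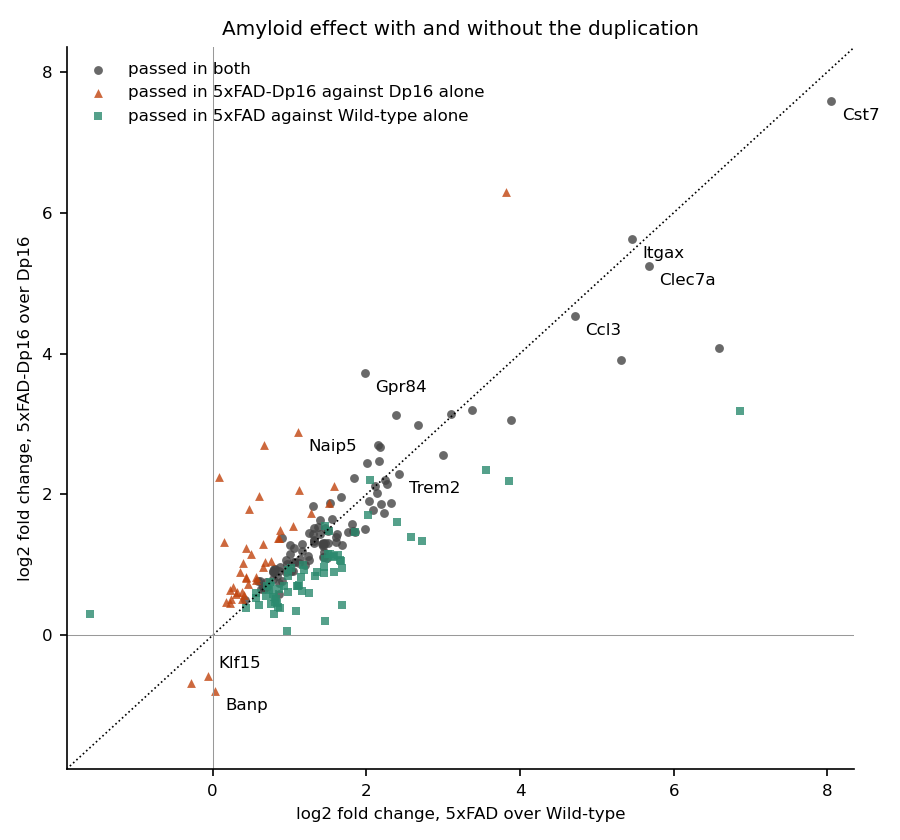
Log2 fold change of 5xFAD-Dp16 over Dp16 against that of 5xFAD over wild-type for every gene that passed in at least 1 of the comparisons, with a dotted line where they are equal. The 100 genes called in both run along the line up to Cst7, at 7.58 and 8.05, and Ccl4 is drawn at its fitted value.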

How the data were processed

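Per the submitters' processing notes, bcl2fastq, FastQC 0.11.5, HISAT2 2.1.0, SAMtools 1.5 and HTSeq 0.6.1 were used with GRCm38; the sources used here do not say whether counting used strand. Libraries were strand-specific per the labels' protocols. The authors deposited raw counts and RPKM for 55385 genes; the RPKM was used for levels per length, and implied 1 length per gene in 27505 of 27505 genes examined (relative tolerance 1e-06). Coordinates came from GENCODE vM21, of the same build (55144 identifiers found). Of the 141 calls, 19 share exon positions with another tested gene, 1 of them on the same strand, and their counts are uncertain.

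Counts of all 16 libraries were fitted with edgeR 4.0.16 in R 4.3.3 (default filter by genotype, 16684 genes, TMM, robust quasi-likelihood, a term per genotype and one for sex, 11 residual degrees of freedom). The SE was derived from the log2 fold change and F. Lists were described by counts and medians. DESeq2 1.42.0 and limma-voom 3.58.1 were alternatives. The steps were tested on simulated data.

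Named genes were those linked to the transgenes, up to 12 rises and falls with the largest change, at least 1 CPM and no overlap between groups, the next 5 by p, up to 4 members per list by p, fixed members, segment genes, and the 5 smallest p of the interaction. Others, such as Cd68, Ctsl, Ctsa, Gusb, Naglu, Npc2, Fcgr2b, Pdcd1, Cd274, Tnfrsf1a, Csf3r, C3ar1, Ccl4, Hexa, Laptm5, Nkx2-2, P2ry13, Syk, Inpp5d, Cd33, Hif3a, Dio2, Mfsd2a and Slc2a1, were chosen after their values were seen. Members and lists were chosen with earlier results of these data known. A list level is the mean log2 CPM (prior count 2) of its tested members, relative to the 16 libraries; a library was called high when more than 1 above their mean. Some named members are not reported here.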

Additional observations from a re-analysis of the deposited data

Results flagged for a closer look

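Among 414 values of 4 libraries examined for the genes and lists named here, 26 had 1 library set apart from the other 3 by more than Dixon's 95% critical value, and chance gives about 1 in 20. Of these, 13 were in 5xFAD-Dp16 and 13 in Dp16.

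5xFAD-Dp16 replicate 3 was the one set apart in 9 of them. It was high in the dopamine transporter Slc6a3 (14.8 CPM, next 0.789), the serotonin enzyme Tph2 (15.8, next 1.24) and the vesicular transporter Slc18a2 (13.3, next 1.89), all on the midbrain list. It was high in the oligodendrocyte list level (0.599 on the log2 scale, next 0.028) and in Enpp6, a gene of new oligodendrocytes (14.7 CPM, next 8.52). It was also high in Cox6c (210 CPM, next 148), Ctsb (738, next 677) and S100a9 (0.81, next 0.34), and low in Lgals3bp (51.3, next 79.5). The other 5xFAD-Dp16 values were Ccl6 in replicate 4 (10.6 CPM, next 12.8), B2m in replicate 2 (241, next 213), Cfap100 in replicate 2 (2.26, next 2.72) and the level of the Alzheimer risk list in replicate 1 (0.318, next 0.148).

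In Dp16, replicate 4 was high in Gpr84 (0.692 CPM, next 0.188), H2-Q6 (1.79, next 0.731), Ndufa1 (70.1, next 60.7), Lhfpl3 (20.1, next 17.7), Emcn (7.9, next 6.46) and Ighm (11.3, next 10.1), and low in Hba-a1 (6.55, next 11.8). Dp16 replicate 2 was low in Ccl6 (0.942 CPM, next 1.63) and high in Aph1b (39.7, next 32.7) and Ifngr2 (111, next 105). Dp16 replicate 3 was high in Gria2 (562 CPM, next 495). Dp16 replicate 1 was low in Penk (30.5 CPM, next 39.0) and high in Rhbdl2 (0.393, next 0.141).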

How the results depend on the processing

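The 141 genes kept their sign under every one of the 28 alternatives in which they were tested. They were called again in every fit with 1 library left out in 68 cases, and Cst7, Itgax, Clec7a and Trem2 were called under all 28. The count was 269 with DESeq2 (250 higher, 19 lower, all 141 among them), 620 with no low-count filter (545 higher, 75 lower, 135 of the 141 among them), 81 with the 8 libraries alone, 49 with males alone and 4 without the libraries high in choroid plexus genes; the last 3 use fewer libraries, and the cause of the others was not tested. Without the sex term 107 genes passed, 98 of them among the 141. With the midbrain and choroid plexus list levels as covariates 146 passed, and 105 of these were among the 141. Leaving out 1 library gave 76 to 146, with 76 without Dp16 replicate 2 and 80 without Dp16 replicate 3, both male. For 5xFAD against wild-type (162) the counts were 292 with DESeq2, 398 with no filter, 44 with males alone, 12 without choroid-high libraries and 109 to 189 with 1 library left out. The interaction had no call but with no low-count filter, where 128 genes passed. Same-numbered 5xFAD-Dp16 and Dp16 libraries deviated together in 3 of 4 pairs (correlation over 0.1, range -0.14 to 0.30), and 2 of 4 5xFAD-Dp16 libraries correlated best with their own number, so the numbers were not taken as pairs. With a replicate block the counts were 148, 162 and 0; the 148 held 125 of the 141, and of the genes named here Banp, H2-Q6, Parp14, Treml2 and Pdcd1 did not pass (edgeR adjusted p = 0.105, 0.109, 0.0951, 0.0703 and 0.0655).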
